A study of Mus musculus with 8 samples.

Results

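The 7 genes Lsm1, Lsm2, Lsm3, Lsm4, Lsm5, Lsm6 and Lsm7, which encode the subunits of the cytoplasmic LSM ring, were chosen by symbol from a table of 23107 genes, and all 7 had a row. The study recovered RNA bound to DCP1A from ovarian cortex of mice at postnatal day 8 by RNA immunoprecipitation (RIP) with an antibody against DCP1A, to ask which RNAs the protein binds in primary oocytes. The 4 input libraries hold RNA of the tissue before antibody was applied, and the 4 RIP libraries hold the RNA that came down with it. Both groups were labelled as mouse ovary. The labels give no strain, genotype or pooling of animals, nor whether libraries of a group came from separate animals. The p-values therefore cover only the spread among these libraries, part or all of which can be technical. Libraries from a control antibody were not analysed here, and background binding was not measured.

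LSM proteins are small relatives of the Sm proteins of the spliceosome, and they assemble into closed rings that hold the 3' end of an RNA. The ring of Lsm1 to Lsm7 binds deadenylated mRNA together with Patl1 and hands it to the decapping complex, of which DCP1A is a part, and both gather in processing bodies. In the nucleus Lsm8 takes the place of Lsm1, and that ring holds the U6 small nuclear RNA. The other 6 subunits, Lsm2 to Lsm7, are shared by both rings. The data here measure the mRNAs of these subunits, not the proteins or the rings.

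The members lie on 4 mouse chromosomes in the GRCm38.p6 annotation, all as protein-coding genes, and spans are of the whole gene with introns. Lsm1 lies on chromosome 8 from 25785318 to 25803975, and a pseudogene, Gm46037, lies within this span over 357 bp. Lsm4 (70673231 to 70678752) and Lsm6 (78804868 to 78821152, minus strand) are on the same chromosome. Lsm3 (91516035 to 91522620, plus strand) and Lsm5 (56701063 to 56704699, minus strand) are on chromosome 6, as is Lsm8 (18848635 to 18854052, plus strand). Lsm7 is on chromosome 10 from 80852825 to 80855209 on the minus strand, with a gap of 32 bp to Sppl2b, which starts away from it on the plus strand. Lsm2 is on chromosome 17 from 34981854 to 34985891 on the plus strand. No other annotated gene overlapped a member besides Gm46037, and all 56 deposited values of the members were whole numbers. The lengths of the mature transcripts were not used here, so levels are compared between libraries for each gene and not between genes.

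Promoter windows from RefSeq (GRCm38.p6) were matched for 5 of the 7 members. Those of Lsm5, Lsm7 and Lsm3 are shown because these are the 3 of the 5 that hold the letters ATGGCGG, which the windows of Lsm2 and Lsm6 do not. Each line runs from 70 bases before to 50 bases after the annotated start, 5′ to 3′ on the strand of the gene, and capitals mark these letters, the core of the recognition element of the transcription factor YY1.
Lsm5, chr6:56704650-56704769, minus strand: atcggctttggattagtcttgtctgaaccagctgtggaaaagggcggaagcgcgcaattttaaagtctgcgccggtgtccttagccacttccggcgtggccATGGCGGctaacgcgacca
Lsm7, chr10:80855160-80855279, minus strand: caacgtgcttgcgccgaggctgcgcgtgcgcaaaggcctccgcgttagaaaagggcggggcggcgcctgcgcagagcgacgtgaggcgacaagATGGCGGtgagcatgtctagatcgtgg
Lsm3, chr6:91515965-91516084, plus strand: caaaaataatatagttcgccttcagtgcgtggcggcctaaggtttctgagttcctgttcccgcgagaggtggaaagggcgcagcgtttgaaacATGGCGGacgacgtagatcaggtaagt
The motif began at base 32 after the start in Lsm5 and at base 24 in both Lsm7 and Lsm3, counting the first transcribed base as base 1. Searched on both strands of whole 300-base windows, ATGGCGG was in 3 of the 5 members with a window and in 4.05% of all 32851 windows. The letters CCGGAAG, the core bound by ETS factors, were in the window of Lsm5 alone of the 5, and in 8.86% of all windows. These matches describe the letters only, and RIP did not measure promoters. The marked letters lie after the annotated start and begin with ATG, the letters of a start codon. Whether they are coding sequence, a site of YY1 or both was not tested, so the shares are not a measure of YY1 sites.

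Libraries held 13098154 to 25757620 counts. RIP 1 stood apart from its group and correlated with the other RIP libraries at r of 0.86 to 0.89 over log2 CPM of all tested genes, where the others correlated with each other at 0.93 to 0.95. The input libraries correlated with each other at only 0.81 to 0.88, and input 2 with the other inputs at 0.81 to 0.84. Input 3 held the highest levels of Lsm3, Lsm5 and Lsm6, so some results are also given without input 3 and RIP 1. This choice was made after the data were seen. For these genes RIP 1 was also the lowest RIP library, so leaving both out raises the fold change by construction. Such values only describe how far a result rests on these libraries. All 12 oocyte and 10 granulosa marker genes had counts. Oocyte markers made up 0.193% to 0.277% of counts in input and 0.158% to 0.282% in RIP, and granulosa markers 0.158% to 0.251% and 0.173% to 0.228%. Stroma and theca markers made up 0.473% to 0.601% and 0.466% to 0.670%. Endothelial, blood, surface epithelial and smooth muscle markers each made up at most 0.0306% in any library. In bulk tissue, fewer cells of a type and less RNA per cell cannot be told apart. The part of these markers in the levels of the ring genes was not tested.

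None of the 7 ring genes differed between RIP and input past the threshold of the test over all genes. Lsm5 had the largest difference, with a mean 2.49-fold lower in RIP, and Lsm1 and Lsm4 the smallest. All 7 members had a negative log2 fold change of RIP over input, with a median of -0.37, where 51.7% of all 14667 genes tested were negative and their median was -0.02. In edgeR's quasi-likelihood fit, with p-values adjusted over all genes by the Benjamini-Hochberg method, 0 of the 7 members had an adjusted p under 0.05, beside 0.0409% of all genes called lower and 0% called higher. At an unadjusted p under 0.05, 1 member was lower (Lsm5) and 0 were higher, beside 4.28% and 3.15% of all genes. DESeq2 and limma voom with sample weights also called 0 members. In 0 of the 7 members did all RIP libraries lie below all input libraries, which 2.52% of all genes did, and in 0 did all lie above, which 2.77% did. With input 3 and RIP 1 both left out, the median of the members was -0.17, with 6 of 7 negative, and without both libraries of number 1 it was -0.19. Within libraries 1 and 2 the median of the members was -0.69, with all 7 negative. Within libraries 3 and 4 it was -0.04, with 4 of 7 negative.

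**Figure D1:**
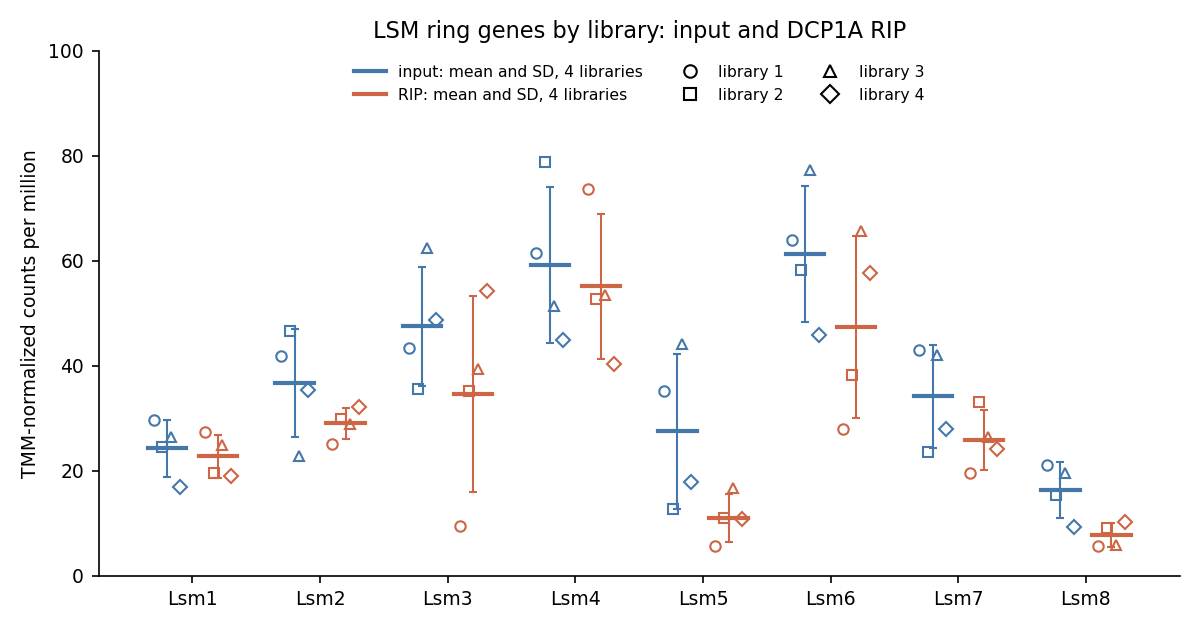
Levels of the 7 ring genes and of Lsm8 in each library, in CPM (counts scaled to library size with TMM factors) on a linear axis. Symbols are single libraries, thick bars are means and thin bars SDs over 4 libraries, with input in blue and RIP in orange; the groups overlap for every gene, and for Lsm5 3 of the 4 RIP libraries lie below the lowest input library.

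Lsm1 is the subunit that sets the cytoplasmic ring apart from the nuclear one. Its level in input libraries 1 to 4 was 29.6, 24.5, 26.3 and 16.8 CPM (counts scaled to library size with TMM factors), and in RIP libraries 1 to 4 it was 27.3, 19.5, 25.0 and 19.1 CPM. The lowest library of all was input 4, and the RIP values lay within the range of the input values. On the log2 scale RIP over input was at -0.10 ± 0.32 (SE, n = 4 each), with a 95% interval from -0.78 to 0.59 (edgeR adjusted p = 0.957). Without input 3 and RIP 1 it was at -0.15.

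Lsm5 is a shared subunit of both rings and had the widest difference of the members. Its level in input libraries 1 to 4 was 35.2, 12.7, 44.1 and 17.8 CPM. In RIP libraries 1 to 4 it was 5.61, 10.9, 16.7 and 10.8 CPM. Inputs 1 and 3 were far above all other libraries, and RIP 3 lay above input 2, so the groups overlapped. The log2 fold change was -1.31 ± 0.45 (SE, n = 4 each; 95% interval -2.28 to -0.35), with an unadjusted p of 0.0108 and an edgeR adjusted p of 0.622. Input 3 and RIP 1 held the extremes, at 1296 and 76 counts. With both left out, a choice made after the data were seen, the log2 fold change was -0.77 (edgeR adjusted p = 0.995). Libraries 1 and 2 alone gave -1.53 and libraries 3 and 4 alone -1.17, and the adjusted p was at least 0.146 in each of the 25 alternatives tried. As a share of the counts of the 7 members, which does not depend on scaling between libraries, Lsm5 made up 11.1%, 4.55%, 13.5% and 7.51% in input libraries 1 to 4 and 2.97%, 4.98%, 6.54% and 4.55% in RIP libraries 1 to 4. The lowest share was again in RIP 1, and inputs 1, 3 and 4 lay above all RIP libraries while input 2 did not.

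Lsm7 and Lsm6, both shared subunits, had smaller differences. Lsm7 was at 43.0, 23.6, 42.0 and 27.9 CPM in input libraries 1 to 4 and at 19.7, 33.2, 26.5 and 24.1 CPM in RIP libraries 1 to 4. As for Lsm5, inputs 1 and 3 were the 2 highest libraries, but RIP 2 came next. Lsm7 had a log2 fold change of -0.40 ± 0.32 (SE, n = 4 each; 95% interval -1.08 to 0.27; edgeR adjusted p = 0.799), and it was -0.17 without input 3 and RIP 1. Lsm6 was at 64.0, 58.2, 77.2 and 45.9 CPM in input and at 27.9, 38.3, 65.7 and 57.7 CPM in RIP libraries 1 to 4. Its RIP libraries 1 and 2 lay below every input library, whereas RIP libraries 3 and 4 lay above input 4. Its log2 fold change was -0.37 ± 0.31 (SE, n = 4 each; 95% interval -1.02 to 0.28; edgeR adjusted p = 0.802). It was -0.88 within libraries 1 and 2 (unadjusted p = 0.0358, edgeR adjusted p = 0.580) and 0.00 within libraries 3 and 4, and without input 3 and RIP 1 it was -0.05.

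Lsm3 and Lsm2 complete the shared subunits with Lsm4. Lsm3 was at 43.3, 35.5, 62.5 and 48.7 CPM in input and at 9.46, 35.2, 39.4 and 54.3 CPM in RIP libraries 1 to 4. RIP 1, with 128 counts, was well below the other 7 libraries, which overlapped. Its log2 fold change was -0.46 ± 0.41 (SE, n = 4 each; 95% interval -1.32 to 0.41; edgeR adjusted p = 0.819), and it was -0.14 without RIP 1 and 0.02 without input 3 and RIP 1. Lsm2 was at 41.9, 46.7, 22.9 and 35.3 CPM in input and at 25.1, 29.9, 28.9 and 32.0 CPM in RIP libraries 1 to 4. Its lowest library was input 3, the library in which Lsm3, Lsm5 and Lsm6 were highest. Its RIP values were the tightest of the members, with an SD of 9.98% of the mean against 28.2% in input. Lsm2 had a log2 fold change of -0.34 ± 0.30 (SE, n = 4 each; 95% interval -0.98 to 0.30; edgeR adjusted p = 0.819), from -0.69 within libraries 1 and 2 to 0.07 within libraries 3 and 4.

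Lsm4, the shared subunit known for a long arginine- and glycine-rich tail, stayed close to its input level in the mean. It was at 61.5, 78.9, 51.4 and 44.9 CPM in input and at 73.7, 52.7, 53.6 and 40.4 CPM in RIP libraries 1 to 4. RIP 1 was the second highest of the 8 libraries, and RIP 4 the lowest. The log2 fold change was -0.10 ± 0.28 (SE, n = 4 each), with a 95% interval from -0.69 to 0.49 (edgeR adjusted p = 0.949). It was -0.33 without input 3 and RIP 1 (edgeR adjusted p = 0.995).

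Pairs of members differed widely in how they varied over the libraries. RIP 1 had the lowest RIP value of Lsm2, Lsm3, Lsm5, Lsm6 and Lsm7, and the highest RIP value of Lsm1 and Lsm4. In that library Lsm4 alone made up 39.0% of the counts of the 7 members, against 15.7% to 28.2% in the other libraries, and Lsm3 made up 5.01% against 12.7% to 22.8%. Over log2 CPM of the 8 libraries, Pearson's r was 0.88 between Lsm5 and Lsm7, 0.82 between Lsm3 and Lsm6 and 0.67 between Lsm1 and Lsm4. It was -0.64 between Lsm3 and Lsm4. Of the 21 pairs, 7 had r over 0.5 and 7 had r under 0, with a median of 0.21. The 6 pairs among Lsm3, Lsm5, Lsm6 and Lsm7 had r from 0.57 to 0.88 and Spearman's rho from 0.48 to 0.79. Without input 3 and RIP 1, the pair of Lsm5 and Lsm7 had r of 0.74 and that of Lsm5 and Lsm6 0.46, and the other 4 of these pairs had r from -0.13 to 0.18. Some pairs outside these 4 genes had a higher r without the 2 libraries, from 0.20 to 0.71 between Lsm1 and Lsm6, from 0.27 to 0.71 between Lsm2 and Lsm4 and from 0.27 to 0.62 between Lsm1 and Lsm5. The pair of Lsm1 and Lsm4 was at 0.69 without them. These correlations describe 8 libraries that span both groups and share the scaling, and they were not tested. They were not set against pairs of other genes, so the counts of pairs have no reference.

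**Figure D2:**
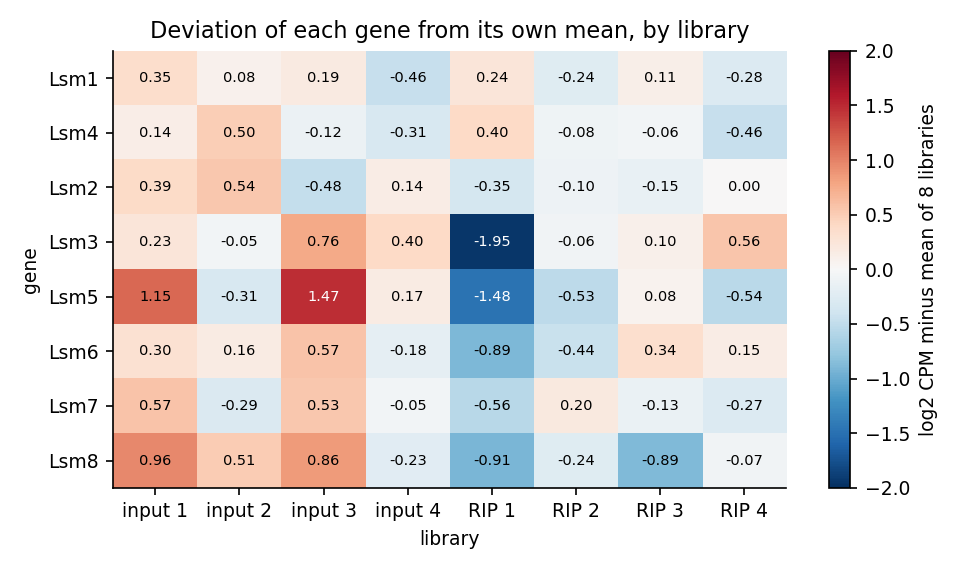
Level of each ring gene and of Lsm8 in each library as log2 CPM minus the mean of that gene over the 8 libraries, with red above and blue below the mean. In RIP 1, Lsm3 is at -1.95 and Lsm5 at -1.48, while Lsm1 and Lsm4 lie above theirs at 0.24 and 0.40.

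The genes whose course over the 8 libraries was most like the mean log2 CPM of the 7 members were Ugp2, an enzyme of UDP-glucose synthesis (r = 0.97), the G protein subunit gene Gng12 (0.96), the Polycomb accessory gene Mtf2 (0.96), Btf3l4 (0.95) and Commd1 (0.95). They were ranked by Pearson's r among 6984 genes of at least median level, excluding predicted genes. Each of them was lower in RIP, with log2 fold changes from -0.99 to -0.63 (edgeR adjusted p = 0.622 to 0.688). They were picked for likeness to a course that was itself lower in RIP on average, so this direction follows from the choice. Their r without input 3 and RIP 1 was not computed. The mean course itself was lowest in RIP 1, at 4.36, and highest in inputs 1 and 3, at 5.46 and 5.43. Between the groups the summed level of the members was 291 ± 41 CPM in input, with a range of 237 to 326, and 226 ± 29 CPM in RIP, with a range of 189 to 256 (SD, n = 4 each).

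Lsm8, which replaces Lsm1 in the nuclear ring, is not a symbol of the table. Its row was taken to be the one named Naa38, an older name of Lsm8, because the gene now called Naa38 has its own row under its older name, Lsmd1. This reading rests on the names and could not be checked by sequence. The row was at 21.1, 15.4, 19.6 and 9.18 CPM in input libraries 1 to 4 and at 5.69, 9.09, 5.76 and 10.3 CPM in RIP libraries 1 to 4. RIP 4 lay above input 4, and the other RIP libraries lay below every input library. The log2 fold change was -1.08 ± 0.43 (SE, n = 4 each; 95% interval from -2.0 to -0.16), with an unadjusted p of 0.0247 and an edgeR adjusted p of 0.622, and it was -0.86 without input 3 and RIP 1.

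The balance of Lsm1 to Lsm8, the subunits that tell the cytoplasmic ring from the nuclear one, was higher in every RIP library than in any input library. There were 1.40, 1.59, 1.35 and 1.83 counts of Lsm1 for each count of Lsm8 in input libraries 1 to 4, and 4.78, 2.14, 4.32 and 1.85 in RIP libraries 1 to 4. RIP libraries 1 and 3 were far above the inputs, while RIP 4 and input 4 were almost equal. The log2 ratio was 0.61 ± 0.20 in input and 1.59 ± 0.69 in RIP (SD, n = 4 each), a difference of 0.98 ± 0.36 (SE; exact two-sided permutation test, p = 0.0286, the smallest this design allows). At RIP 4 and input 4 the log2 ratios were 0.89 and 0.87 with counting errors of 0.12 and 0.11, so their order is within counting error. When each other tested gene was put in the place of Lsm8, 0.955% of 14666 genes gave a ratio of Lsm1 that was higher in every RIP library than in any input library. The difference was 0.69 with input 3 and RIP 1 left out (exact permutation p = 0.1, n = 3 each). Lsm1 against each of the 6 shared subunits gave differences of 0.02 (Lsm4) to 1.16 (Lsm5), and in 0 of these 6 ratios were the groups apart. Lsm8 against the same subunits gave differences of -0.96 (Lsm4) to -0.38 (Lsm3) for 5 of them and of 0.18 for Lsm5, again with the groups apart in 0 of 6. Levels within a ratio are counts and not per length, so only its difference between groups can be read.

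**Figure D3:**
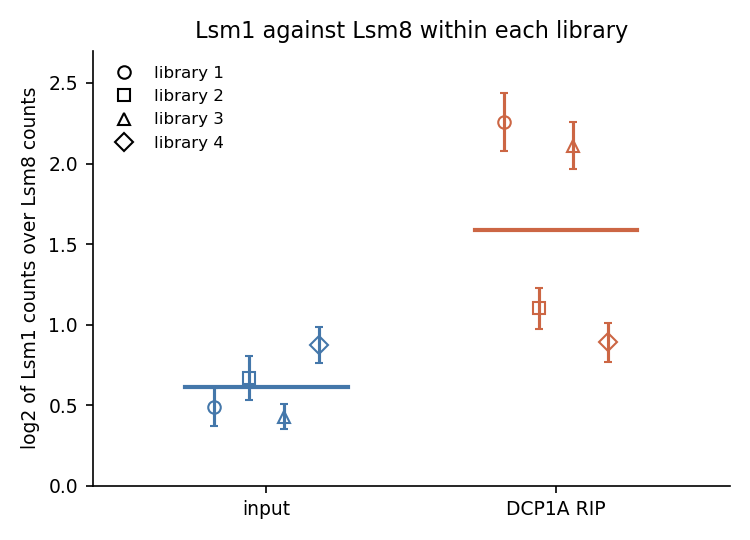
The log2 ratio of Lsm1 counts to Lsm8 counts within each library, with thin bars of 1 counting standard error and thick bars at the mean of the 4 libraries of a group. RIP libraries 1 and 3 lie above 2 on this scale and RIP 4 lies at 0.89, next to input 4 at 0.87.

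The Sm genes, which encode the ring of the spliceosomal small nuclear RNAs and are the closest relatives of the LSM genes, had a lower median fold change than the LSM ring genes. Snrpe was at 72.5, 44.1, 49.2 and 34.9 CPM in input and at 21.1, 25.2, 23.7 and 21.2 CPM in RIP libraries 1 to 4, and all RIP libraries lay below all input libraries. Its log2 fold change was -1.14 ± 0.30 (SE, n = 4 each; edgeR adjusted p = 0.456). Snrpg had one of -1.29 ± 0.42 (edgeR adjusted p = 0.622), with input libraries from 14.6 to 58.9 CPM and RIP libraries from 11.5 to 17.8 CPM. After adjustment over all genes, edgeR called 0 of the 8 Sm genes, as did DESeq2 and limma voom with sample weights. At an unadjusted p under 0.05, edgeR had 5 lower (Snrpe, Snrpg, Snrpd1, Snrpd3 and Snrpf) and 0 higher, beside 4.28% and 3.15% of all genes. DESeq2 also had 5 lower and 0 higher, and limma voom had 2 lower and 1 higher. In edgeR's fit the count of lower genes was 3 without any 1 of input 3, RIP 1, RIP 3 or RIP 4, and 2 without input 3 and RIP 1, where the median was -0.49. The median of the 8 was -0.71, against -0.37 for the LSM ring genes, a difference that was not tested. Libraries 1 and 2 alone gave a median of -0.79, and libraries 3 and 4 alone one of -0.48. Snrpb (0.02 ± 0.28) and Snrpd2 (-0.21 ± 0.29) were close to their input level. Snrpn (-0.07 ± 0.93) was at 28.6, 11.6, 0 and 7.65 CPM in input libraries 1 to 4. In RIP libraries 1 to 4 it was at 8.87, 9.71, 8.90 and 17.9 CPM. Snrpn also had counts that were not whole numbers, so its level is uncertain.

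**Figure D4:**
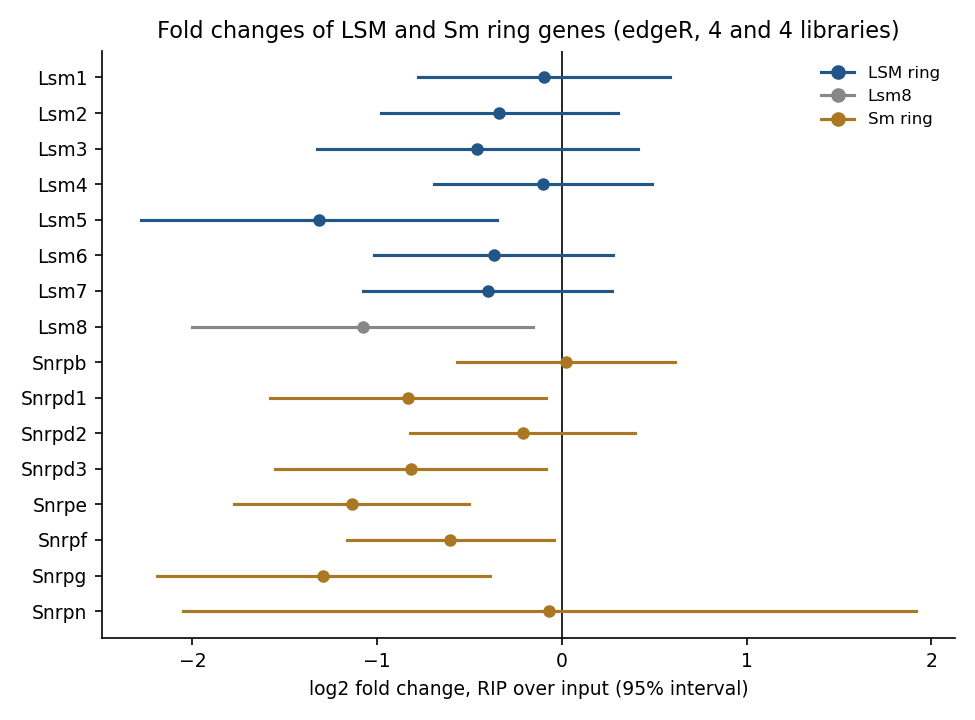
Log2 fold change of RIP over input with its 95% interval for the 7 LSM ring genes, Lsm8 and the 8 Sm ring genes, from edgeR's fit to 4 input and 4 RIP libraries. Of the LSM ring genes only Lsm5 has an interval that leaves out 0, from -2.28 to -0.35, and no gene shown passed after adjustment over all genes.

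Other genes of the pathways in which the ring works gave 0 calls by edgeR over all genes tested, in each of the 6 lists, and 0 by DESeq2 or limma voom with sample weights. At an unadjusted p under 0.05, edgeR had 1 of these 69 genes higher and 7 lower, beside 3.15% and 4.28% of all genes, and limma voom had 2 higher and 5 lower. The 12 decapping partners had a median of -0.08, with 2 lower and 0 higher at an unadjusted p under 0.05. Patl1, which bridges the ring and the decapping enzyme, was at -0.02 ± 0.29 as a log2 fold change, and Dcp1a was at 0.04 ± 0.26. The lowest p of this list were those of Pnrc1 and Pnrc2, at -0.68 ± 0.26 and -1.01 ± 0.41 (edgeR adjusted p = 0.622 each). Of the 18 genes of the U6 particle and the tri-snRNP, 14 had a positive fold change and the median was 0.14, where 7089 of all 14667 genes were positive and their median was -0.02. Sart3, which recycles U6 with the nuclear LSM ring, was at 136, 155, 93.4 and 148 CPM in input and at 233, 191, 188 and 148 CPM in RIP libraries 1 to 4 (log2 0.52 ± 0.24, edgeR adjusted p = 0.672). RIP 4 and input 2 overlapped there. Larp7, which binds small nuclear RNAs, was at -1.07 ± 0.63 on this log2 scale (edgeR adjusted p = 0.738). It was at 17.7, 26.7, 65.6 and 21.6 CPM in input and at 1.18, 19.5, 15.9 and 26.1 CPM in RIP libraries 1 to 4. Its extremes were in input 3 and RIP 1, and the groups overlapped.

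Genes that assemble Sm rings, of which 11 of 12 were tested, had a median of 0.16. Strap, a partner of the SMN protein, had a log2 fold change of -0.83 ± 0.27 (edgeR adjusted p = 0.617), with all RIP libraries below all input libraries. The methylosome subunit gene Wdr77 had one of 0.62 ± 0.30 (edgeR adjusted p = 0.680), with all RIP libraries above. Its lowest RIP library was at 37.98 CPM and its highest input library at 37.78 CPM, so the groups were barely apart. In this list 1 of 11 genes lay wholly below and 1 wholly above, beside 2.52% and 2.77% of all genes. Among the 16 genes of uridylation and decay from the 3' end, the median was -0.17, and the exosome genes Exosc9 and Exosc1 were at -0.87 ± 0.30 and -0.81 ± 0.35 (edgeR adjusted p = 0.622 and 0.631). The list of 5 genes of histone mRNA processing and decay, which the LSM ring also serves, had a median of -0.20. Casp8ap2 was at -1.35 ± 0.45 and Mif4gd at 0.89 ± 0.45 (edgeR adjusted p = 0.622 and 0.690). For Casp8ap2 input 3 was highest, at 59.9 CPM, and RIP 1 lowest, at 6.13 CPM. For Mif4gd RIP 1 was highest, at 39.6 CPM, and input 3 lowest, at 7.90 CPM. The groups overlapped for both genes. The other LSM domain genes besides Lsm8 ranged from -0.34 for Lsm14a to 0.17 for Naa38, the row named Lsmd1.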

How the data were processed

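Estimated counts (expected counts) for 8 libraries were used as deposited by the authors. Per the labels' protocols, DCP1A-bound RNA came from a Magna RIP kit, and a SMARTer Stranded Pico kit made the libraries, and per the submitters' processing notes the build was mm10. Which aligner, counting tool and annotation were used, and whether counting used strand, is not given in the sources used here. Up to 1.85% of a library's values were not whole (tolerance 1e-09), and values were rounded to keep the test planned for counts. Genes with a minimum count of 10 by filterByExpr were tested, 14667 in all, with TMM scaling and a robust quasi-likelihood fit in edgeR 4.0.16 (R 4.3.3), Benjamini-Hochberg adjustment and a threshold of 0.05. The standard error is the size of the log2 fold change over the square root of F. Alternatives used other scalings, filters and library sets, DESeq2 1.42.0, and voom of limma 3.58.1. The Lsm1 to Lsm8 ratio used a pseudocount of 0.5. The fit was also run on simulated counts with no block and no outlying library, so that run does not show how it performs on these data. Intervals of counts cover counting error only. Symbols were matched to RefSeq GRCm38.p6, 20546 by symbol and 2320 by synonym. Named were all members, Lsm8, Dcp1a, Patl1, the 2 genes of lowest p in each list and the 5 genes most like the members; other genes were chosen after their values were seen. The members and lists were chosen with earlier results of these data known.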

Additional observations from a re-analysis of the deposited data

Results flagged for a closer look

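Within the 4 RIP libraries, Lsm7 made up 15.1% of the counts of the 7 members in RIP 2, against 10.1% to 10.4% in the other RIP libraries, and Lsm2 made up 11.3% in RIP 3, against 13.3% to 13.6% in the others. Each library lay far from the rest of its group for its gap over the range, by Dixon's test for 4 values. Of 34 groups of 4 values examined, 2 were picked out, and chance picks out about 1 in 20.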

How the results depend on the processing

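The count of 0 ring genes called was the same in all 26 alternatives tried, and all members kept a negative fold change except in 8 of 175 fits. The exceptions were Lsm1 without input 1 (0.0123, with a lowest value of -0.235 without input 4) and within libraries 3 and 4 (0.0272), Lsm2 (0.0655) and Lsm6 (0.00214) within libraries 3 and 4, Lsm3 without input 3 and RIP 1 (0.0152), and Lsm4 without input 2 (0.0678), RIP 4 (0.0240) or number 2 (0.0881, with lowest values of -0.272 without RIP 1 and -0.335 without both input 3 and RIP 1). Over all genes 6 were called, all lower, against 56 by DESeq2 (13 higher), 20 by limma voom with sample weights (0 higher), 27 within libraries 1 and 2 (3 higher), 55 with libraries 1 and 2 against 3 and 4 as a block (12 higher), and 22 without input 3 and RIP 1 (1 higher). Leaving out 1 library gave 4 to 17 (15 without input 3, 17 without RIP 1, of which 1 higher), and leaving out a number gave 1 to 7. The causes were not tested. Deviations from the group means correlated at 0.16, 0.09, 0.18 and 0.12 between input and RIP libraries of the same number, 1 to 4. Inputs 1 and 2 correlated with RIP 1 and 2 at -0.003 to 0.16 and with RIP 3 and 4 at -0.17 to -0.09. Inputs 3 and 4 correlated with RIP 3 and 4 at 0.12 to 0.27 and with RIP 1 and 2 at -0.25 to -0.04. The main fit used no block, and whether the numbers mark pairs or batches was not tested. With the replicate number as a block 55 genes were called (13 higher), none of them a ring gene. The Lsm1 to Lsm8 difference was 0.75 to 1.21 without 1 library (exact permutation p = 0.0571 each, the smallest these sizes give), 0.98 in pairs by replicate number (p = 0.125, the smallest 4 pairs give by exact sign flips), and 0.69 without input 3 and RIP 1 (exact p = 0.1, the smallest for 3 against 3). Depth limits Lsm5 and Lsm8 most, at 76 and 77 counts in RIP 1.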
